A study of Mus musculus with 3 samples.

Results

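Gnrh1 encodes the precursor of gonadotropin-releasing hormone (GnRH), and it was followed as 1 gene of the 32285 in the count matrices of 3 single-cell libraries. It was chosen from its own measured values, a large number of molecules in very few cells at E13.5 (E for embryonic day), so its levels are given here as a description and carry no test. Each library came from embryonic palatal shelves of mice of the C57BL/6J strain, wild type, with the shelves of 3 embryos pooled. One was made at E13.5, another at E14.5 and the third at E15.5. No mutant, treated or otherwise manipulated group belongs to them. The tissue was digested with TrypLE and the cells were fixed in methanol before droplet capture, in which every cell receives a barcode and every captured RNA molecule a unique molecular identifier (UMI). A value is therefore a number of molecules. With 1 library per stage, no test between stages was possible, and all intervals below are 95% intervals that cover counting error only.

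GnRH is a short secreted peptide that drives the release of luteinizing and follicle-stimulating hormone from the pituitary, and the small population of neurons that makes it controls reproduction. These neurons are unusual in their origin. They are born in the nasal placode and then, in mid-gestation, migrate through the nasal mesenchyme and septum along axons of the vomeronasal and terminal nerves into the forebrain. The palatal shelves grow out beneath that nasal cavity.

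The E13.5 library held 4236 barcodes and 11472663 UMIs, the E14.5 library 2079 barcodes and 5293977 UMIs, and the E15.5 library 3113 barcodes and 8313677 UMIs. The median total was 1735, 1614 and 1699 UMIs per barcode. The tissue label is palate, but 49.6% of the 3582 E13.5 barcodes that were clustered (the Gnrh1-rich one described below left aside) fell in neuron-like clusters, with cortical and GABAergic forebrain markers among them, and 480 in mesenchyme-like ones. At E14.5 132 of 1750 clustered barcodes were neuron-like, and at E15.5 173 of 2584. Across the libraries 5 barcodes occurred more than once, and the Gnrh1-rich barcode was found in 1 library only.

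In the reference annotation (GRCm38, the same build as mm10) Gnrh1 lies on the plus strand at chr14:67745181-67749439 with 3 annotated transcripts. Its nearest neighbours are Kctd9, which ends 2870 bases before it on the same strand, and Dock5, which begins 2695 bases beyond it on the minus strand.

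At E13.5 Gnrh1 had 223 UMIs, and 187 of them, or 83.9%, were in a single barcode. At this stage 21 barcodes had 1 UMI, 5 had 2 to 9 UMIs and 1 had 10 or more. The 5 intermediate barcodes had 4, 4, 3, 2 and 2 UMIs. Nothing lay between 4 and 187, so with the threshold of 5 UMIs for a Gnrh1-rich barcode the only member was far inside it and the nearest barcodes outside had 4. A threshold of 10 chose the same barcode.

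The later libraries held no Gnrh1-rich barcode. At E14.5 4 barcodes had 1 UMI and 1 had 2, which made 6 UMIs in all. At E15.5 11 barcodes had 1 UMI each and none had more. For barcodes with 5 or more UMIs, the count of 0 allowed a share of up to 0.144% at E14.5 and 0.0964% at E15.5, so cells rarer than that could have been missed at either stage. The E13.5 share, 1 of 4236 barcodes, was below both limits, so these counts cannot show a difference between stages.

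The share of barcodes with any Gnrh1 UMI was 0.637% (27 of 4236, 0.420 to 0.926%, exact Clopper-Pearson) at E13.5. It was 0.241% (0.0781 to 0.560%) at E14.5 and 0.353% (0.177 to 0.631%) at E15.5, and these intervals overlapped. The level over the whole library, in CPM (counts scaled to a common library size), was 19.4 (17.0 to 22.2, exact Poisson) at E13.5, 1.13 (0.416 to 2.47) at E14.5 and 1.32 (0.661 to 2.37) at E15.5. Most of the gap between E13.5 and the later stages rested on 1 cell: without that barcode the E13.5 level was 3.14 CPM (2.20 to 4.35) from 36 UMIs. The remaining E13.5 level was 2.77 times that of E14.5 (1.16 to 8.04) and 2.37 times that of E15.5 (1.18 to 5.17).

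**Figure D1:**
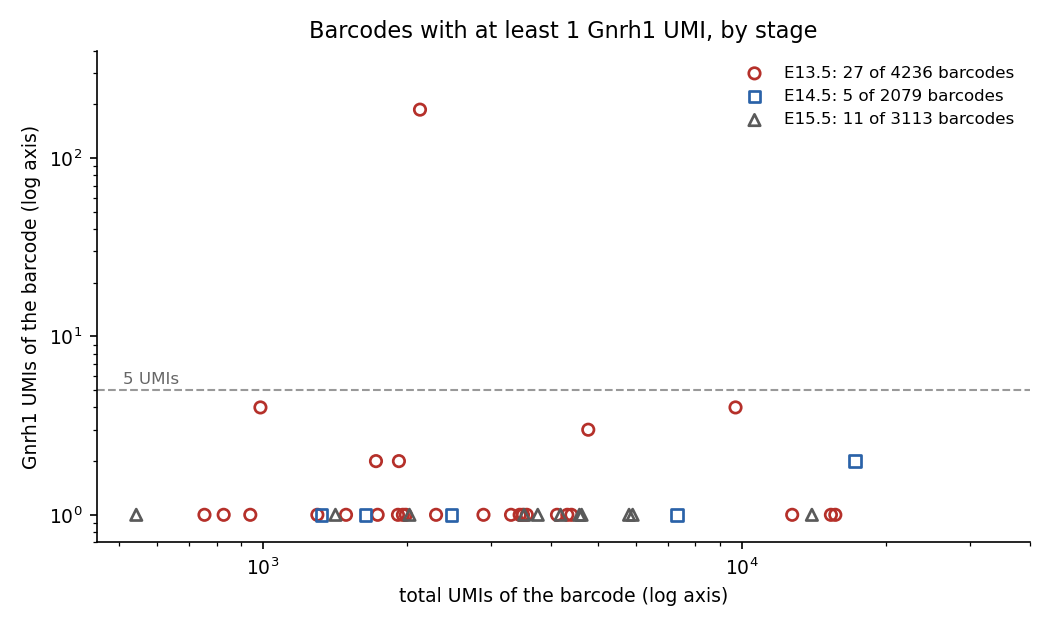
Gnrh1 UMIs against the total UMIs of the barcode, both on log axes, for every barcode with at least 1 Gnrh1 UMI; circles are E13.5, squares E14.5 and triangles E15.5, and the dashed line marks 5 UMIs. One E13.5 barcode stands at 187 UMIs, and the other 26 E13.5 barcodes and all barcodes of the later stages stand between 1 and 4.

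Such concentration in 1 barcode was rare. Among the 9854 genes with at least 100 UMIs at E13.5, Gnrh1 had the highest share of its UMIs in its top barcode, and the median gene had 1.36%. The next genes were Dct, a melanocyte enzyme, with 56.1% in a barcode of the glia-like cluster, and Mylpf, a muscle myosin light chain, with 46.6% in a muscle-like barcode. Only Gnrh1 and Dct exceeded 50%. The comparison describes the library, since the pattern is what Gnrh1 was chosen for.

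The Gnrh1-rich barcode was ordinary in its size. It had 2127 UMIs from 1187 genes. It was set beside the 642 other neuron-like E13.5 barcodes with 1500 to 3000 UMIs, called the depth-matched neurons below, whose median was 1247.5 genes. Its share of mitochondrial UMIs was 0.423% against a median of 0.458%, and its share of ribosomal protein genes was 5.08% against 4.93%. Its doublet score of 0.0541 lay near their median of 0.0449.

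Gnrh1 made up 8.79% of the barcode's UMIs, a level of 87917 CPM. Only Malat1, an abundant nuclear long non-coding RNA, had more, with 368 UMIs or 17.3%. The Malat1 share of the depth-matched neurons had a median of 10.4%, and 96.3% of them had a share at or below that of the Gnrh1-rich barcode. Leaving Malat1 aside, the top gene of the 1777 other neuron-like E13.5 barcodes took a median of 1.31% of the UMIs, and in 10 of them some gene reached at least the share that Gnrh1 had here. The barcode was thus a cell of usual depth in which a single peptide hormone gene was the most abundant message after Malat1. The neighbouring genes Kctd9 and Dock5, with 90 and 86 UMIs in the E13.5 library, both had 0 UMIs there. Only 0.0152 and 0.00711 were expected at the level of the other neuron-like barcodes, so their absence was not detectable at this depth.

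Because 1 UMI in this barcode already equals 470 CPM, 960 of its 1187 genes were seen once, 202 had 2 to 4 UMIs and 25 had 5 or more. A gene at 0 could have stood at up to 1410 CPM. The comparison with the 1777 other neuron-like barcodes, each with under 5 Gnrh1 UMIs, therefore says little gene by gene. With 1 CPM added to both levels, 897 of 4216 genes (21.3%) had a log2 ratio of at least 1, and 736 of those rested on 1 UMI. Another 3051 genes (72.4%) had a log2 ratio of at most -1, and 3029 of those had 0 UMIs in the barcode. Most of these calls rest on 1 UMI or on 0, and the comparison was not run for any other single barcode. No member is read as changed from them. Instead each gene's UMIs are set beside the number expected in 2127 UMIs at the level of the other neuron-like barcodes, and beside the depth-matched neurons one by one.

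The barcode carried a general neuronal profile. Of the 8 pan-neuronal markers 5 were found, with 10 UMIs in all, where 7.48 were expected and the depth-matched neurons had a median of 6. Stmn2, a regulator of microtubules in growing axons, had 5 UMIs (2.63 expected). Ina, a neurofilament protein, had 2, and Tubb3, a neuronal tubulin, Elavl3, a neuronal RNA-binding protein, and Dcx, a microtubule protein of migrating neurons, had 1 each. Stmn3, Elavl4 and Snap25, the rest of the list, had 0 (0.661, 0.484 and 0.335 expected). Tuba1a, a tubulin of young neurons, had 10 UMIs (5.91 expected) and Tmsb10, an actin-binding peptide, had 12 (10.4 expected). Neither of these was confined to neuron-like clusters. The other neuron-like barcodes held 11644 of the 20971 E13.5 UMIs of Tuba1a and 20484 of the 47827 of Tmsb10.

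Isl1, a LIM-homeodomain transcription factor expressed by migrating GnRH neurons as well as by striatal, motor and sensory neurons, had the most UMIs of the regulators. The barcode had 5 Isl1 UMIs where 0.461 were expected, a ratio of 10.9 (3.52 to 25.4), and 3.12% of the depth-matched neurons had as many. The ratio depended on the class set beside it: it was 7.43 (2.41 to 17.4) against the GABAergic neuron-like class and 5.77 (1.86 to 13.6) against the cluster in which the barcode fell, where Isl1 is higher, and 76.1 (22.7 to 203) against the Slc17a6 glutamatergic class. Of the 16 transcription and chromatin regulators of GnRH neurons, 14 had 0 UMIs, among them Meis2 (1.51 expected), Chd7 (0.481), Pou2f1 (0.401) and Dlx5. None of these was expected at 3 UMIs or more, so their absence was not detectable at this depth.

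Of the 7 markers of peripheral sensory neurons measured, 3 were found. Prph, and the genes Cxcr4 and Gal of other lists, had 1 UMI each and were named after their values were seen, so no ratio is given for them. Prph, the intermediate filament peripherin that is used to trace the nasal axons along which GnRH neurons travel, had 1 UMI in the barcode and only 20 in the whole E13.5 library. Scn9a, a peripheral sodium channel, also had 1 UMI. With Isl1 the list had 7 UMIs (2.81 to 14.4) where 0.564 were expected, and 1.56% of the depth-matched neurons had as many. Isl1 belongs to this list and to that of the regulators, so 5 of the 7 UMIs are the ones already described, and Pou4f1, Avil and Tlx3 had 0.

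Of the 11 olfactory and vomeronasal markers measured, Gng8 alone was found. Gng8 is a G protein gamma subunit of immature olfactory and vomeronasal sensory neurons, and the barcode had 2 UMIs where 0.0589 were expected, a ratio of 34.0 (4.06 to 125). This ratio also depended on the class set beside it. It was 88.6 (10.2 to 350) against the GABAergic neuron-like class and 18.7 (2.19 to 72.3) against the Slc17a6 glutamatergic class. Against the olfactory neuron-like class it was 2.92 (0.344 to 11.1), an interval that includes equal levels. Only 0.312% of the depth-matched neurons had as many. Elsewhere in the E13.5 library Gng8 stood at 322 CPM in the 42 olfactory neuron-like barcodes, 57.1% of which had a UMI, at 50.2 CPM in the Slc17a6 glutamatergic ones (8.89% with a UMI) and at 10.6 CPM in the GABAergic neuron-like ones. Gnao1, the G protein alpha subunit abundant in neurons, had 3 UMIs (0.471 expected) and was singled out after its value was seen. Omp, Stoml3, Gng13 and the other 7 markers had 0, and the whole list had 2 UMIs against 5.39 expected at the level of the olfactory neuron-like class, of which 2 of 7 barcodes with 1500 to 3000 UMIs had 2 or fewer.

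The guidance, adhesion and migration list was the best represented of the GnRH neuron lists, with 7 of 18 genes and 11 UMIs. At the level of the other neuron-like barcodes 12.4 UMIs were expected, so its sum did not set the cell apart. Dcc, the netrin receptor that guides the vomeronasal axons and the GnRH neurons on them, had 5 UMIs against 5.88 expected. Cxcr4, the receptor for the chemokine CXCL12 along the nasal migratory route, had 1 UMI, and the whole E13.5 library had 43 UMIs of it in 41 barcodes. L1cam and Cntn2, axonal adhesion molecules, St8sia4, which makes polysialic acid, Epha5, an ephrin receptor, and Ncam1, the carrier of polysialic acid, had 1 UMI each, with 0.107, 0.130, 0.164, 2.07 and 2.90 expected.

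Genes for handling a secreted peptide were found at low counts. Chgb, a granin of secretory granules, Scg5, a chaperone of prohormone convertase 2, and Pcsk1n, an inhibitor of prohormone convertase 1, had 1 UMI each, 3 of 12 genes in all, where the list as a whole was expected at 3.19 UMIs. Pcsk2, Cpe and Pam, the convertase, carboxypeptidase and amidating enzyme of peptide maturation, had 0, with 0.299, 0.386 and 0.434 expected. Of the 18 other neuropeptides Gal, which encodes galanin, alone had a UMI: 1 of the 98 in the E13.5 library.

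Disease and transmitter genes were not seen. Of the 23 mouse genes whose human counterparts are mutated in congenital GnRH deficiency, 0 were found, with 1.07 UMIs expected over the whole list, and 41.9% of the depth-matched neurons also had none. Of the 13 transmitter identity genes 0 were found, with 1.19 expected, and 43.0% of the depth-matched neurons had none. Absence from these lists was not detectable at this depth.

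Of the 6789 genes that reached 20 CPM in the other neuron-like barcodes, 84.5% had 0 UMIs in the Gnrh1-rich one. Of the list members that reached this minimum, 6 of 11 guidance genes were found, 3 of 10 peptide processing genes, 2 of 11 regulators, 0 of 6 deficiency genes and 0 of 5 transmitter genes. By that minimum the median guidance gene had 1 UMI, and the median member of the other lists 0, as had the median of all 6789 genes.

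**Figure D2:**
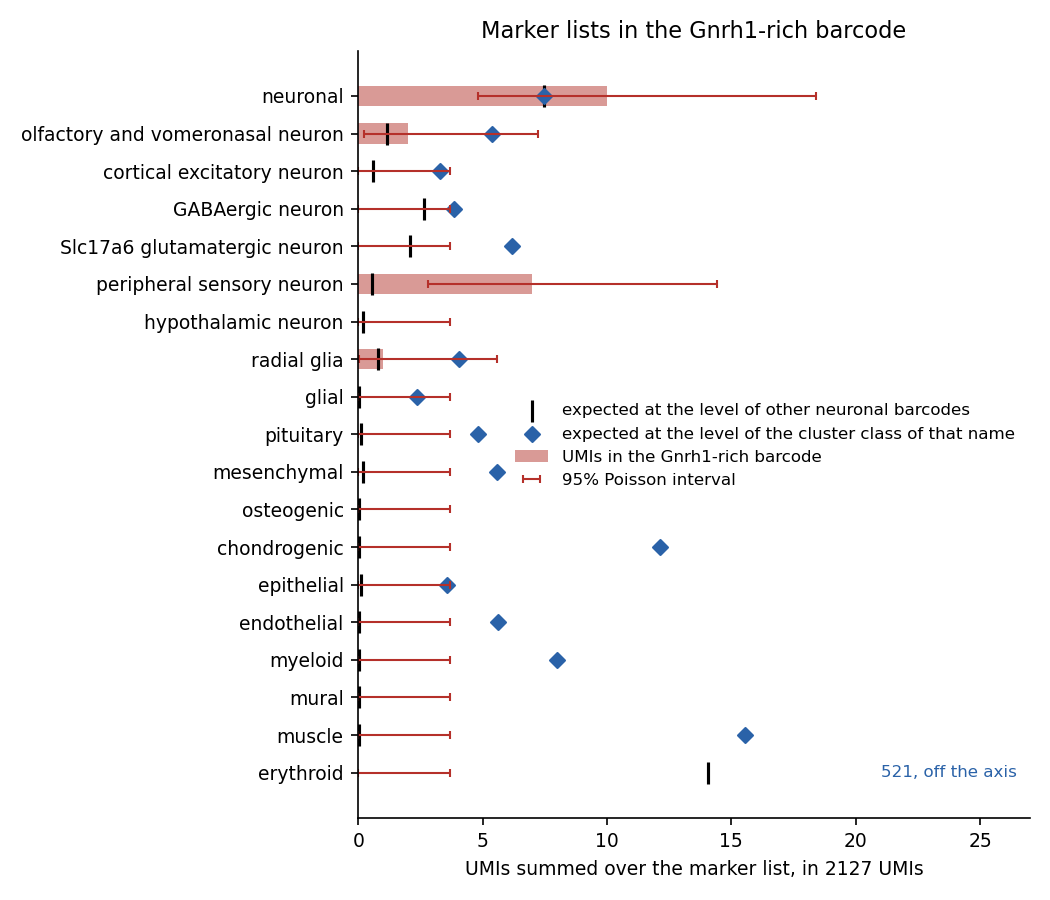
UMIs summed over each marker list in the Gnrh1-rich barcode (bars, with 95% Poisson intervals), the sum expected in 2127 UMIs at the level of the other neuron-like E13.5 barcodes (vertical ticks) and at the level of the E13.5 cluster class of that name, where one exists (diamonds). The peripheral sensory list has 7 UMIs against 0.564 expected, the neuronal list 10, and the lists of 15 other cell types none.

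The markers of most other cell types were at 0. No UMI was found of the mesenchymal list, where 5.58 were expected from the mean level of the mesenchyme-like class and its 181 barcodes with 1500 to 3000 UMIs had a median of 4, with 6 of them at 0. The chondrogenic, endothelial, muscle and erythroid lists were also at 0, and no barcode of their own classes in that depth range (22, 3, 2 and 8 barcodes) had 0. The epithelial list was at 0 (own class median 3.5, 3 of 52 at 0), as were the myeloid list (median 3, 1 of 10 at 0) and the pituitary list (median 1.5, 0 of 8 at 0). The medians of the myeloid and pituitary classes lay below the 8.0 and 4.81 expected from their means. The cortical list had 0 against 3.30 in its own class, where 5 of 80 barcodes of this depth also had 0. The Slc17a6 glutamatergic list had 0 against 6.17, and 10 of 150 barcodes of that class had 0. The GABAergic list had 0 against 3.85, but 107 of the 405 GABAergic neuron-like barcodes of this depth had 0 as well. Vim, an intermediate filament of progenitors, was the only radial glia marker found, with 1 UMI.

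Globin RNA, the main message of red blood cells, gave a further measure. The 6 erythroid genes had 0 UMIs in the Gnrh1-rich barcode where 14.1 were expected from the mean of the other neuron-like barcodes, while the depth-matched neurons had a median of 4 UMIs of them and 3.74% of them had none. The highest sum of the 6 genes in a depth-matched neuron was 856.

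Seen as single genes, 25 had 5 or more UMIs in the barcode, and those named here and not yet described were singled out after their values were seen. Klf9, a Krüppel-like transcription factor that responds to glucocorticoid and thyroid hormone, had 8 UMIs where 0.00406 were expected, and the barcode held 8.42% of its 95 UMIs in the E13.5 library. None of the depth-matched neurons had as many, and the highest count in any other E13.5 barcode was 10. Tenm1, a teneurin adhesion protein, had 5 UMIs (0.336 expected), and Gap43, a growth cone protein, had 5 (0.830 expected). Both are genes of growing axons, but 2.96% and 2.18% of the depth-matched neurons had as many. Dqx1, a helicase-like gene, had 6 UMIs where 0.0147 were expected. Its 100 UMIs lay in 32 barcodes of the E13.5 library, up to 14 in 1, across neuron-like, mesenchyme-like, radial glia-like and unnamed clusters, so such counts were not particular to this cell.

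Other abundant messages lay near or away from the expected number. Ptma, a nuclear protein of growing cells, had 6 UMIs (7.12 expected) and Hsp90ab1, a chaperone, 5 (5.05). Gm42418, which overlaps ribosomal RNA, had 10 where 19.3 were expected, a ratio of 0.517 (0.248 to 0.951). Rps29, a ribosomal protein gene that was also singled out after its value was seen, had 7 UMIs where 1.24 were expected. None of the depth-matched neurons had as many.

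At the other end, the genes most abundant in the other neuron-like barcodes and absent here were few. Nrxn3, a presynaptic adhesion molecule that is high in the GABAergic neuron-like clusters, had 0 UMIs against 9.69 expected from the mean. That is at least 3.23-fold below the mean at the limit of 3 counts. However, Nrxn3 was found in 89.3% of the barcodes of the cluster in which this barcode fell. In the second GABAergic neuron-like cluster it was found in 67.0%, at a median of 2624 UMIs. Other neuron-like barcodes thus also had 0, and no difference is read from it. Hba-a1 and Hbb-y are globins and had 4.72 and 3.30 expected. Ptprd, a receptor phosphatase of synapses, Celf2, a neuronal splicing regulator, and Ccser1 had 3.38, 3.37 and 3.29 expected, close to the limit of 3 counts, and no difference is read from them. For the remaining 4 of the 10 most abundant absent genes (Robo1, Hnrnpa2b1, Hba-a2 and Ank3) under 3 UMIs were expected, and their absence was not detectable.

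**Figure D3:**
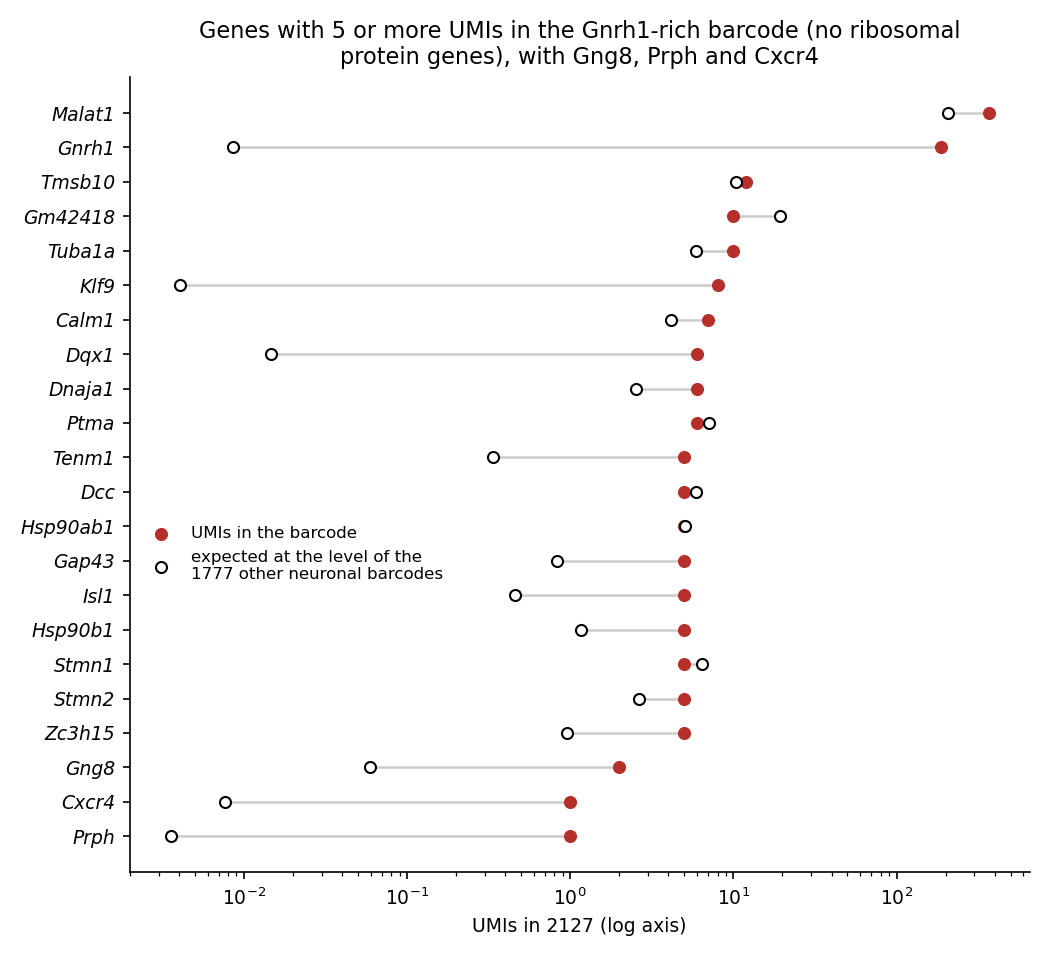
UMIs in the Gnrh1-rich barcode (filled circles) and the number expected in 2127 UMIs at the level of the 1777 other neuron-like E13.5 barcodes (open circles), on a log axis, for the genes with 5 or more UMIs, ribosomal protein genes left aside, and for Gng8, Prph and Cxcr4. The widest gaps are those of Gnrh1, Klf9, Dqx1, Prph and Cxcr4, and the last 2 rest on 1 UMI each and were named because they were found.

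The subclass of this cell changed with the clustering. With Gnrh1 among the clustered genes the barcode fell in a GABAergic neuron-like cluster, although none of the 9 GABAergic markers was found in it, and with Gnrh1 left out of them it fell in the Slc17a6 glutamatergic neuron-like cluster, although none of the 7 markers of that class was found either. With no doublets left out it fell in an unnamed cluster. Its placement among the neuron-like barcodes is used above only to choose what it is compared with, and no subclass is read from it.

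The 26 other E13.5 barcodes with a Gnrh1 UMI looked different. Of the 24 that were clustered, 13 or 54.2% (32.8 to 74.4%) lay in neuron-like clusters, where 49.6% of all clustered barcodes and 40.3% of their UMIs lay. The 1777 neuron-like barcodes had 17 UMIs, 4.06 CPM (2.36 to 6.50), with a UMI in 0.732% of them at a median depth of 1858 UMIs. The 1805 barcodes of all other clusters also had 17 UMIs, 2.74 CPM (1.60 to 4.39), with a UMI in 0.609% at a median depth of 2064. The ratio of the levels was 1.48 (0.710 to 3.09). These other clusters include an unnamed and an erythroid-like one that carried at least 7 of the 8 neuronal markers, and 297 barcodes of them held 8 of the 17 UMIs. Without them 1508 barcodes were left, such as mesenchyme-, radial glia- and epithelium-like ones. These types are assumed to lack the gene, which was not tested. The 1508 barcodes had 9 UMIs, 2.41 CPM (1.10 to 4.57), with a UMI in 0.398% (0.146 to 0.864%) at a median depth of 1881. The neuron-like level was 1.69 times theirs (0.711 to 4.29), so over all neuron-like barcodes a difference from them was not detectable at this depth.

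The intermediate barcodes were of mixed type. One of the pair with 4 UMIs was a mesenchyme-like barcode with 987 UMIs in total, 3 UMIs of mesenchymal markers and 1 of neuronal markers. The other had 9709 UMIs, 20 of them from mesenchymal and 16 from neuronal markers, and lay in an unnamed cluster. The barcode with 3 UMIs and both barcodes with 2 UMIs were GABAergic neuron-like, with 43, 13 and 9 UMIs of neuronal markers and 8, 6 and 1 of GABAergic markers. Gng8 and Prph had 0 UMIs in all 5, and Isl1 had 2 and 1 UMIs in the GABAergic neuron-like barcodes with totals of 4780 and 1922. Dcc was found in all 5, with 4 UMIs in the mesenchyme-like one, and in 54.4% of the E13.5 barcodes with no Gnrh1 UMI.

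The 21 barcodes with 1 UMI ranged from 754 to 15694 UMIs in total. Of these, 10 were neuron-like (8 GABAergic neuron-like), 3 lay in unnamed clusters, 2 each were radial glia-like and epithelium-like, 1 each chondrocyte-like and erythroid-like, and 2 had been left out of the clustering. Their median total was 2887 UMIs. Isl1 was found in 9 of the 21, or 42.9% (21.8 to 66.0%), and in 14.0% of the 4209 E13.5 barcodes with no Gnrh1 UMI, which are shallower, with a median of 1729 UMIs. Of the 1190 such barcodes with at least 2887 UMIs, 23.6% had Isl1, and their median of 4366.5 UMIs was above that of the 21. Dcc was found in 14 of the 21, or 66.7%, against 54.4% and 71.6%. Every one of the 26 barcodes differed from the Gnrh1-rich one in at least 9 of the 16 bases of the barcode, so none was a near copy of it.

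By class, most low-level Gnrh1 UMIs in neuron-like barcodes lay in the GABAergic class. GABAergic neuron-like barcodes had 15 UMIs in 11 of 1144 barcodes, 5.49 CPM (3.07 to 9.05), the Slc17a6 glutamatergic and cortical ones 1 UMI each in 360 and 231, and the olfactory neuron-like ones 0 in 42, which allows up to 7.14% of such barcodes to have a UMI and does not limit the share of cells that express the gene. The level of the GABAergic class was 4.00 times that of the other neuron-like classes together, with an interval of 0.929 to 36.0 that includes equal levels. Radial glia-like barcodes had 2 UMIs in 580, epithelium-like ones 2 in 156, and mesenchyme-like ones 4 in 480, all from 1 barcode. Unnamed clusters had 7 in 350, and 1 UMI each in 67 erythroid-like and 59 chondrocyte-like barcodes made 9.28 CPM (0.235 to 51.7) and 5.89 CPM (0.149 to 32.8). Endothelial, myeloid, muscle, pituitary and glia-like barcodes had 0, among 10 to 33 barcodes each.

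Of the GABAergic UMIs 13 lay in 1 cluster, in 9 of its 644 barcodes, and that cluster was singled out of 25 after its values were seen. It had 11.1 CPM against 2.28 CPM in the 2938 barcodes of all other clusters, a ratio of 4.89 (2.25 to 10.2). Intervals for this cluster take no account of that choice. They also treat UMIs as independent, while 3, 2 and 2 of the 13 lay together in single barcodes. The median depth was 1446 UMIs in this cluster and 2124.5 in the others. As shares, 1.40% (0.641 to 2.64%) and 0.511% (0.286 to 0.841%) of the barcodes had a UMI, and these intervals overlapped. The second GABAergic neuron-like cluster had 2 UMIs in 500 barcodes. With Gnrh1 left out of the clustered genes, a cluster that held 590 of the 644 barcodes had 13 UMIs, not all of them in the same barcodes, and its ratio to all others was 5.16 (2.37 to 10.8). Isl1 stood at 407 CPM in this cluster and at 249 CPM in the second GABAergic neuron-like one, and Dlx6os1, a non-coding RNA of the Dlx locus in forebrain GABAergic neurons, at 1279 and 377 CPM. The part that uneven free RNA or clustering has in the ratio was not tested.

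**Figure D4:**
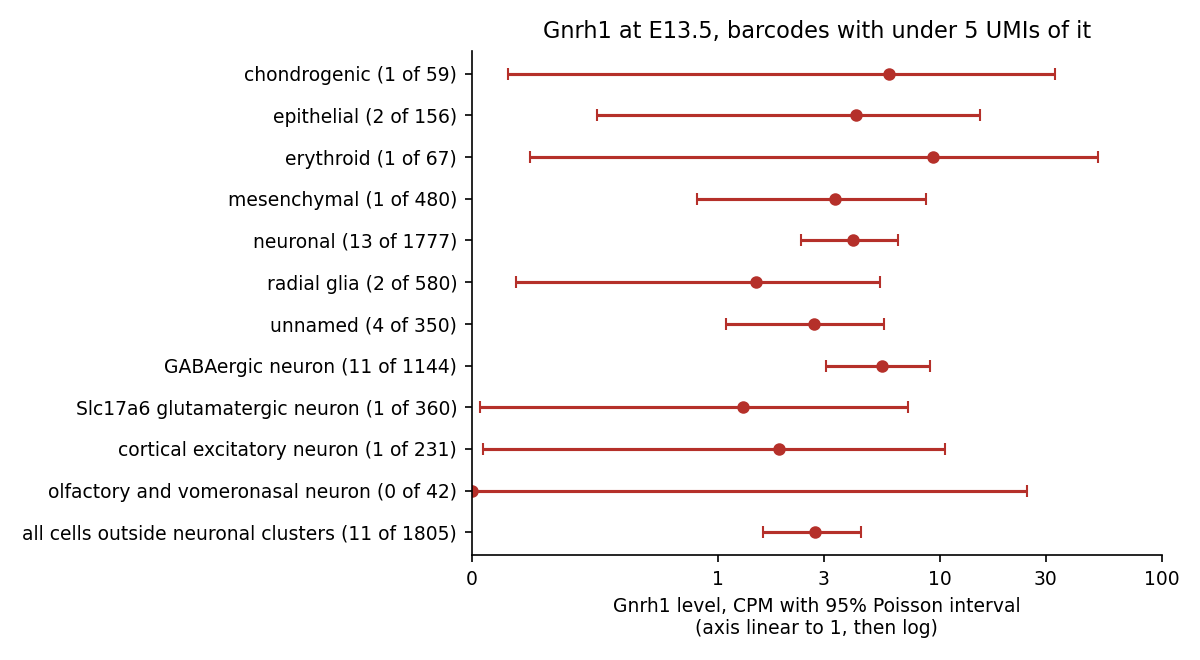
Gnrh1 level in CPM (points, with 95% Poisson intervals, axis linear to 1 and then log) by cluster class at E13.5 in barcodes with under 5 Gnrh1 UMIs, for classes of 40 or more barcodes; the numbers give the barcodes with a UMI of all in the class. Barcodes inside and outside the neuronal clusters stand at 4.06 and 2.74 CPM with overlapping intervals, and the GABAergic class at 5.49 CPM.

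At the later stages the UMIs were scattered over several classes. At E14.5 1 of 6 UMIs was in a neuron-like barcode (2.73 CPM, 0.0691 to 15.2), 3 were mesenchyme-like and 2 in unnamed clusters. At E15.5 1 of 11 was neuron-like (2.05 CPM, 0.0520 to 11.4), 4 were mesenchyme-like, 2 epithelium-like, 1 muscle-like, 1 unnamed, and 2 in barcodes left out. Outside the neuron-like clusters the level was 1.10 CPM (0.356 to 2.56) at E14.5 and 1.12 CPM (0.484 to 2.21) at E15.5. The later neuron-like barcodes were nearly all olfactory neuron-like, 120 of 132 and 150 of 173, which is another makeup than at E13.5. The neuron-like barcode with a Gnrh1 UMI was olfactory neuron-like at both stages, and each of the 2 had 1 Prph UMI and no Isl1 or Gng8 UMI. Prph was named after its value in the Gnrh1-rich barcode was seen. At E13.5 14.3% of the olfactory neuron-like barcodes had a Prph UMI. The share at the later stages was not measured, so no link between Prph and Gnrh1 is read from these barcodes.

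The rest of the reproductive axis was almost silent. Gnrhr, the GnRH receptor of pituitary gonadotropes, Kiss1, the ligand upstream of GnRH neurons, and Fshb, the follicle-stimulating hormone subunit, had 0 UMIs in all 3 libraries. Lhb, the luteinizing hormone subunit, had 1 UMI at E14.5 and 0 at the other stages. Kiss1r, the kisspeptin receptor, had 12, 3 and 3 UMIs in the 3 stages in order, and Tacr3, the neurokinin B receptor, had 7, 1 and 6, while its ligand gene Tac2 had 1, 1 and 0.

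Cga, the alpha subunit that the pituitary glycoprotein hormones share, was the exception, with 154, 130 and 287 UMIs. Of the 287 at E15.5, 225 were in 1 barcode outside the pituitary-like ones. Pituitary-like barcodes were few, 31, 37 and 36, and held 123, 101 and 55 of these UMIs. Gnrhr at 0 UMIs in them allowed up to 34.5, 41.3 and 31.5 CPM. Gnrh1 itself had 0 UMIs in the pituitary-like barcodes of every stage. This depended on the clustering: with no doublets left out, the cluster named pituitary held 442 barcodes instead of 104. Barcodes called epithelium-like above, with 1 Gnrh1 UMI each, then fell in it at E13.5 and E15.5. No gene of the axis other than Gnrh1 was found in the Gnrh1-rich barcode.

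The genes whose level followed Gnrh1 most closely over the 25 clusters were named by Pearson's r of log2(CPM + 1), as a description. They were Dlx5 (0.65), Zfp941 (0.63), Zfp770 (0.63), Pfn2 (0.62), Gm14342 (0.62), Slc32a1 (0.62), March5 (0.61), Dlx6os1 (0.61), Ntmt1 (0.61) and Zfp334 (0.60). The Gnrh1 level of the cluster that leads this ranking, 167 CPM, rested on the 1 Gnrh1-rich barcode, and all 10 genes had 0 UMIs in that barcode.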

How the data were processed

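Per the submitters' processing notes, reads were aligned and counted with Cell Ranger 6.1.2 on mm10, and the file headers name the same version. The authors deposited raw UMI counts per gene and barcode for called cells, with a smallest total of 500 UMIs. Gnrh1 and the gene lists were chosen with earlier results of these data known. Clusters were made with scanpy 1.11.5 and igraph 0.11.9. Barcodes with under 500 genes or over 20% mitochondrial UMIs were left out (544, 304 and 473 on genes, 0 on mitochondria). Doublet scores came from scrublet, whose automatic threshold called 0.0617% of barcodes and had not worked. Instead the top-scoring 0.8% per 1000 barcodes were removed (109, 25 and 56), leaving 7917 barcodes. The 2000 most variable genes, 30 principal components, 15 neighbours and Leiden resolution 1 gave 25 clusters of the 3 libraries together. A marker counted for a cluster at 20 CPM or more, if also at least 2 times the lower quartile and at least the mean over clusters. Several clusters could therefore count the same marker. A name needed at least 3 counted markers and went to the list with the largest share counted. Marker symbols Trpc2 and Drgx were not matched. Clusters without enough markers, or with leading genes of another class, stayed unnamed. One unnamed cluster carried neuronal markers and globins. Levels are summed counts scaled to a common library size (CPM), with exact Poisson intervals, and ratios have exact conditional intervals (scipy 1.17.1). A count of 0 was given a limit of 3 counts. Log2 ratios used 1 CPM added and a minimum of 50 CPM in whichever group was higher. No p-values were computed, since cells of 1 library are not replicates. Statistics were tested on simulated data. Named genes were Gnrh1, its neighbours, the 3 highest and 3 lowest of each list among members with 5 UMIs in the Gnrh1-rich barcode or 20 CPM in the others, up to 15 with at least 10 UMIs there, the 10 lowest with at least 200 CPM in the others, the 10 with the largest share of their E13.5 UMIs in it among those with at least 10 there, and the 10 most correlated over clusters; further list members named, among them Prph, Cxcr4 and Gal, were chosen after their values were seen. In the lists, members at 0 UMIs are tied. A few genes, and the results that need them, are not reported here.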

Additional observations from a re-analysis of the deposited data

How the results depend on the processing

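The single Gnrh1-rich barcode at E13.5, and none later, was found under every barcode filter tried, and thinned to 1500 UMIs its count was 137. Thinning left 2389, 1108 and 1721 barcodes, of which 14, 3 and 5 had a Gnrh1 UMI. The neuron-like level at E13.5, 48.7 CPM with the Gnrh1-rich barcode, was 32.1 at resolution 0.5, 60.1 with at least 1000 genes per cell and 4.06 without that barcode. With at least 1000 genes the mesenchyme-like level at E13.5 (3.36 CPM) and the neuron-like level at E14.5 (2.73) became 0, and at resolution 0.5 the mesenchyme-like level at E14.5 (1.46) became 0. With the threshold at 2 Gnrh1 UMIs, 1082 genes were lower instead of 3051, and the share of calls that were higher was 48.0% instead of 22.7%. That threshold also took the log2 ratio of Isl1 from 3.43 to 0.80, Gap43 from 2.59 to 0.41, Tenm1 from 3.89 to 0.57, Gng8 from 5.04 to 1.73 and Klf9 from 10.34 to 7.02. It adds 5 barcodes of mixed type to the sum, the largest with 9709 UMIs. The 2127 UMIs of the Gnrh1-rich barcode are then a small part of the sum, which dilutes its counts. Klf9 was also at 9.03 with neurons chosen by 3 of 8 markers and at 8.31 with 10 CPM added. Klf9, Gap43 and Tenm1 were singled out after their counts in this barcode were seen, so their ratios are a description only. Dcc changed sign, from -0.23 to 0.089, when neurons were chosen by 3 of 8 markers. The remaining 57 summary values and 56 gene values moved by less than their counting interval or 1.5 times. The restriction of the others to 1500 to 3000 UMIs, the totals without Gnrh1, the clustering without Gnrh1 and the other clusters without those that carry neuronal markers were chosen after seeing the data. Leaving out the barcode with the most UMIs left no Gnrh1-rich barcode, and no other neuron-like barcode had exactly its total, so neither alternative gave a value. No paired analysis was possible because each stage has 1 library. Depth limits every statement on genes at 0 in the Gnrh1-rich barcode.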

Other observations

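Other genes also had a large share of their E13.5 UMIs in 1 barcode. Cxcl2, a chemokine, had 67 of its 149 UMIs (45.0%) in a myeloid-like barcode, and Apoe, the apolipoprotein of macrophages and glia, had 190 of 497 (38.2%) in a barcode of that class, with the rest spread so that 124 barcodes had a UMI. Cga had 52 of 154 UMIs (33.8%) in a pituitary-like barcode, and Plekhg5 had 56 of 142 (39.4%) in a barcode of an unnamed cluster. The muscle genes Actc1 (28.6%) and Ttn (25.2%) and the inner ear gene Oc90 (21.9%, in an epithelium-like barcode) followed. These shares are values of single barcodes with no replicate.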
